A study of Mus musculus with 35 samples.

Results

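Liver tumors driven by MYC were compared with non-tumorous liver (NTL) of the same mouse model on 8 of the 35 arrays of the series, 5 of tumor and 3 of NTL, taken by their labels. The series profiled liver from 3 mouse models of liver cancer, driven by the carcinogen diethylnitrosamine (DEN), by lymphotoxin α and β made in the liver (LT) or by MYC. The DEN tumor and NTL samples are from mice given DEN at 10 mg/kg on day 15 and are labelled 9 months. The LT tumor and NTL samples are labelled 12 months. RNA from snap-frozen tissue was measured on Affymetrix whole-transcript arrays, 1 per sample, and tumor tissue was checked by histopathology. The MYC mice carried TRE-MYC, a MYC transgene behind a promoter that answers to the tetracycline transactivator, and LAP-tTA, which makes that transactivator from a liver-specific promoter. Doxycycline in the chow, at 200 mg/kg, held the transgene off until 8 weeks of age and was then withdrawn. The 5 tumors and the 3 NTL samples are both labelled as coming from mice that overexpress MYC in the liver. The mouse IDs of the 3 NTL samples begin with WT, however, and none of them occurs among the tumors, so tumor and NTL were not paired by mouse. A further 4 arrays hold control liver of transgene-negative mice matched for sex and age, which the MYC model shares with the LT model, and these controls served as a second reference. The labels used here do not give strain, sex or age at collection for these groups. Each of the 12 arrays carries a mouse ID of its own, but 2 tumors have IDs with a common stem and were also averaged as an alternative.

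MYC is a transcription factor that pairs with MAX and binds the DNA sequence CACGTG, the E-box. It is known for raising the transcription of genes that build ribosomes, make nucleotides and drive cell division, and in the liver its forced expression gives hepatocellular tumors. Normal hepatocytes divide their work along the lobule: cells near the central vein, under Wnt and β-catenin signalling, make glutamine and run much of the detoxification, while cells near the portal vein make urea and glucose.

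Values are log2 expression as normalised by the submitters, so a difference of 1 is a 2-fold change. A gene was called changed when its adjusted p was below 0.05 in limma (moderated test, Benjamini-Hochberg adjustment over all 18820 genes). The 12 arrays had medians between 5.619 and 5.687. Tissue identity was clear in all of them: Alb, which encodes albumin, lay between 13.66 and 13.77 in the tumors, between 13.73 and 13.77 in NTL and between 13.62 and 13.76 in the controls. The NTL arrays correlated at 0.996 to 0.997 with one another over all genes, and the tumors at 0.972 to 0.978 with NTL. Tumor replicate 3 stood apart, with correlations of 0.979 to 0.981 with the other 4 tumors, which correlated at 0.988 to 0.993 among themselves. Control replicate 3 also stood apart: its Xist, the RNA made from the inactive X chromosome, was 12.20, against 4.21 to 6.13 in the other 11 arrays.

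Myc itself, the gene that the model raises, did not separate the groups cleanly. Its level was 8.88, 9.71, 9.56, 10.52 and 9.60 in tumor replicates 1 to 5, and 9.48, 6.42 and 7.25 in NTL replicates 1 to 3. The controls read 7.29, 7.31, 7.18 and 9.56. All 5 tumors were high, but NTL replicate 1 and control replicate 4 lay within the tumor range. The tumors were 1.94 ± 0.61 (SE) higher than NTL (limma adjusted p = 0.0217) and 1.82 higher than controls (limma adjusted p = 0.0191), or 1.60 and not called without control replicate 3 (adjusted p = 0.0725). The call against NTL was lost without NTL replicate 2 (1.29, adjusted p = 0.204), without NTL replicate 3 (1.70, adjusted p = 0.0998), without tumor replicate 4 (1.72, adjusted p = 0.0518) and when only the compared groups were fitted (adjusted p = 0.0571). Whether the probes detect the transgene is not given in the sources used here. Of 13 genes of the MYC network measured, Mxd3, a MAX partner made in dividing cells, was higher by 0.60, while Mycl, a MYC relative, was lower by 0.64 (-0.64) and Mlxipl, the carbohydrate-response factor ChREBP, was at -0.49, all called. The other 9 members were not called.

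**Figure D1:**
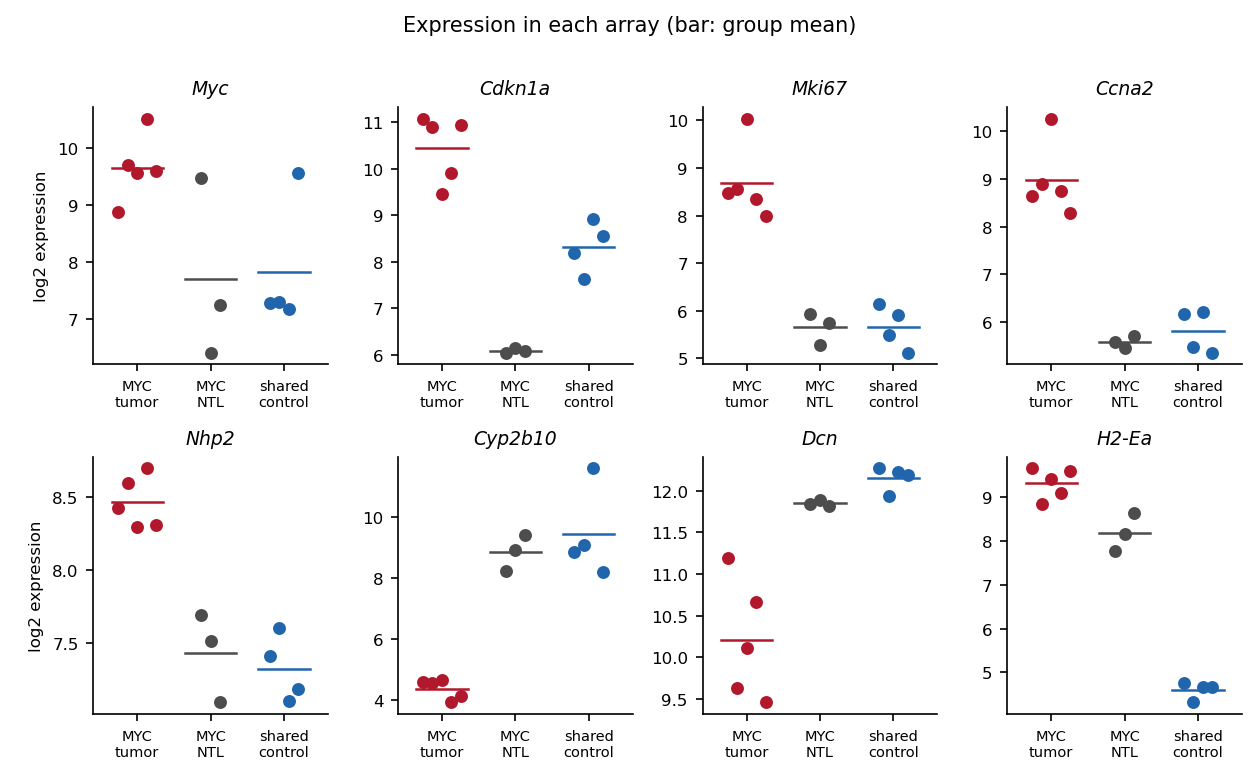
Log2 expression (y axes, each with its own range) of 8 genes in the 5 MYC tumor, 3 MYC NTL and 4 shared control arrays; points are arrays and bars group means. Mki67 and Ccna2 are high in every tumor, Cyp2b10 and Dcn low, Myc reads 9.48 in NTL replicate 1 and 9.56 in control replicate 4, and H2-Ea is low in the controls alone.

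Across all genes, 4106 were called in tumor against NTL, which is 21.8% of those tested: 2170 higher (11.5%) and 1936 lower (10.3%), a split that turned to 1876 higher and 2223 lower after median centring of the arrays. The count was 2728 without NTL replicate 1. At a change of 2-fold or more, 398 called genes were higher and 340 lower. The arrays of tumor and NTL did not overlap for 2453 genes with every tumor above (13.0%) and 2607 with every tumor below (13.9%). The median change of all genes was -0.03.

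Against the shared controls, 3860 genes (20.5%) were called, 1923 higher (10.2%) and 1937 lower (10.3%). The change held in the same direction against both references for 2245 genes (11.9%), 1264 higher (6.72%) and 981 lower (5.21%), which is 58.2% of the genes called higher against NTL and 50.7% of those called lower. Both comparisons use the same 5 tumors. A further 1844 genes were called against NTL and not against the controls. Only 17 genes, 10 and 7, were called in opposite directions. Among the genes changed 2-fold or more, 307 of the 398 higher and 235 of the 340 lower were also called against the controls.

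**Figure D2:**
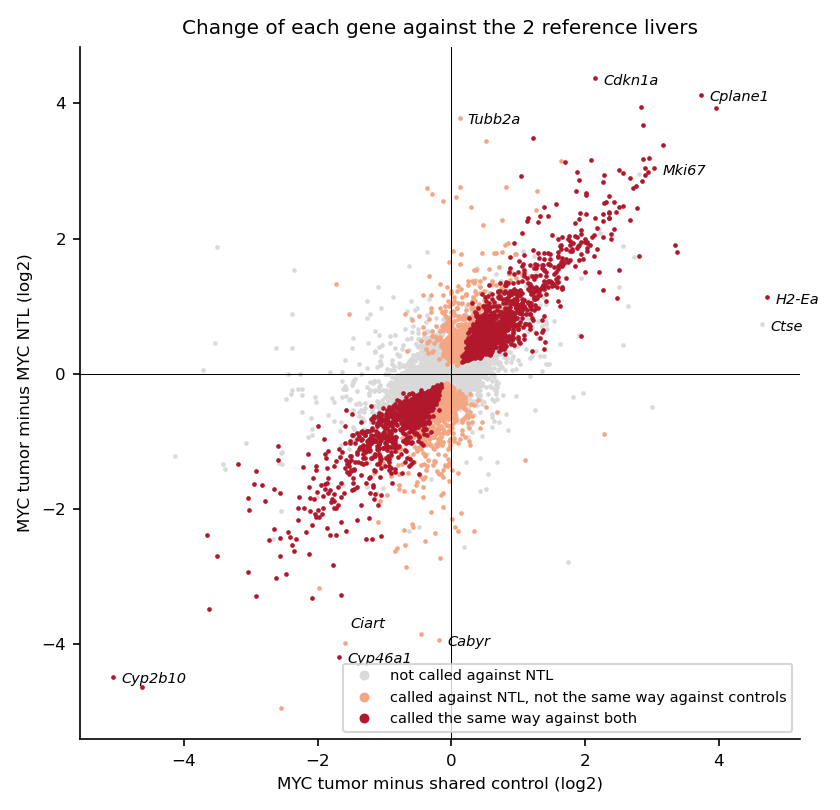
Change of each of the 18820 genes in MYC tumor against MYC NTL (y axis, log2) and against the shared controls (x axis, log2); each point is a gene, coloured by its calls, and both axes use the same tumors. The 2245 genes called the same way against both lie along the diagonal, while Tubb2a, Cabyr and Ciart lie near 0 on the x axis.

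Cell division was the most uniform rise. Of 26 mitosis genes, 25 were called higher against NTL and none lower, with a median change of 2.15, and the same 25 were called against the controls, where all 26 were. Mki67, the proliferation marker Ki-67, read 8.48, 8.55, 10.04, 8.35 and 8.00 in the tumors, 5.92, 5.28 and 5.75 in NTL and 6.13, 5.48, 5.90 and 5.12 in the controls. The tumors did not overlap NTL or the controls, and tumor replicate 3 was the highest array. The rise of Mki67 against NTL was 3.04 ± 0.41 (SE, limma adjusted p = 3.87e-06). Ccna2, cyclin A2, rose by 3.38, Plk1, a kinase of mitotic entry and spindle assembly, by 3.19 and Bub1, a spindle checkpoint kinase, by 3.18, each with every tumor above every NTL and control array. Tumor replicate 3 had the highest value of the 5 tumors for 26 of the 26 genes; it was the highest tumor for 22.6% of all genes and the lowest for 22.3%. Without it, 24 of 26 remained called with a median of 1.95.

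Genes of DNA synthesis rose by less. In the DNA replication list, 18 of 27 genes were called higher and 1 lower against NTL (median 0.55), and 12 were higher against both references. Mcm6 and Mcm5, subunits of the replicative helicase, rose by 1.61 and 1.57, and Prim1, a primase subunit, by 1.5. Mcm10 was the exception at -0.80, a call that NTL replicate 1 and 3 and tumor replicates 1 and 5 each ended when left out (adjusted p 0.0533 to 0.177). Of 24 genes of nucleotide and polyamine synthesis, 11 were higher and 2 lower. Rrm2, the small subunit of ribonucleotide reductase, rose by 1.70 ± 0.30 (SE) and Ctps, CTP synthase, by 1.02 ± 0.28 (SE), or 0.62 when its probe sets were averaged. Odc1, the first enzyme of polyamine synthesis and a textbook MYC target, was at -0.15 and not called, and Cad, which starts pyrimidine synthesis, was at 0.37 and not called against NTL.

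Ribosome biogenesis rose broadly and shallowly. Of 37 genes, 20 were called higher and none lower against NTL, with a median change of 0.35, and all 20 were also called against the controls, where 27 were. Nhp2, a core protein of the particles that modify ribosomal RNA, read 8.43, 8.60, 8.30, 8.70 and 8.31 in the tumors, 7.69, 7.51 and 7.09 in NTL and 7.41, 7.6, 7.10 and 7.18 in the controls. Every tumor lay above every other array, with a rise of 1.04 ± 0.17 (SE; limma adjusted p = 5.34e-05). Nop58, which guides ribosomal RNA methylation, rose by 0.83 and Npm1, nucleophosmin, by 0.74. The RNA polymerase I subunits Polr1a, Polr1b and Polr1c rose by 0.43, 0.60 and 0.43. Nucleolin (Ncl) and fibrillarin (Fbl) rose by 0.35 and 0.25, so most of these changes were below 2-fold. After median centring of the arrays 17 of the 37 were called, and without tumor replicate 3, 16 were.

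The aminoacyl-tRNA synthetases, which charge tRNAs for translation, behaved alike: 11 of 16 were higher and none lower against NTL (median 0.50), and 9 were higher against both references. Iars, the isoleucine enzyme, read 10.74 to 10.95 in the tumors against 10.01 to 10.18 in NTL, a rise of 0.75 ± 0.11 (SE). Nars, the asparagine enzyme, rose by 0.59 ± 0.11 (SE). Against the controls, Tars, the threonine enzyme, was the only member called lower, at -0.86, and against NTL it was at 0.06.

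The MYC binding sequence was searched in promoter windows of 250 bases before to 50 after each gene's start (RefSeq, GRCm38.p6). CACGTG reads the same on both strands. It occurred in 9.57% of the 14739 promoters available, in 12.2% of those of genes called higher against NTL, in 13.5% of those higher against both references and in 10.1% of those called lower. In the ribosome biogenesis list 5 of 32 windows held it (15.6%), in the ribosome biogenesis genes higher against both references 2 of 18 (11.1%), and in the mitosis list 2 of 23 (8.70%). A related sequence, CAGCTG, also the same on both strands, occurred in 18.2% of all promoters and in 17.5% of those called higher. These shares describe letters in a short window and not binding. Nop2, a methyltransferase of large-subunit ribosomal RNA that rose by 0.39 against NTL, is shown because it is a called ribosome biogenesis gene with a match; its E-box, in capitals, begins 60 bases before the start. The 250 bases before the start are printed, at chr6:125131633-125131882 on the plus strand, written 5′ to 3′.
Nop2: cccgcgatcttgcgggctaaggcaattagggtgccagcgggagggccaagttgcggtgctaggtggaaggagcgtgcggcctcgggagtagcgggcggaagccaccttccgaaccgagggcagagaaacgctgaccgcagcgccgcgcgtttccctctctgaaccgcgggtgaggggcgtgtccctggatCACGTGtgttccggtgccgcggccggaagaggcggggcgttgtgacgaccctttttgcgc

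The largest rise belonged to a cell cycle inhibitor, in a ranking that left out predicted genes and some gene families. Cdkn1a, which encodes p21 and is a classic p53 target, read 11.08, 10.91, 9.45, 9.91 and 10.94 in the tumors, 6.05, 6.15 and 6.08 in NTL and 8.18, 7.63, 8.92 and 8.55 in the controls. The 3 groups did not overlap: tumors were highest and NTL lowest. The rise was 4.37 ± 0.48 (SE), or 20.6-fold, against NTL (limma adjusted p = 1.87e-07) and 2.14, or 4.40-fold, against the controls (limma adjusted p = 0.000636), since NTL lay 2.23 below the controls (-2.23). Of 21 p53 target genes, 13 were called higher and 1 lower against NTL (median 0.55), and 8 were higher against both references, or 5 without control replicate 3. Tnfrsf10b, a death receptor, rose by 2.03, Eda2r, a p53-induced receptor, by 1.78 and Zmat3, an RNA-binding p53 target, by 1.10, each also against the controls. Mdm2, the inhibitor of p53, rose by 0.55. Plk2, Btg2, Phlda3 and Fas were called against NTL and not against the controls.

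Other large rises spanned several functions. D17H6S56E-5 read 9.39 to 10.51 in the tumors, 5.79 to 6.17 in NTL and 5.69 to 6.27 in the controls. Mtmr11, a myotubularin-related protein, rose by 3.68 and was 2.86 above the controls, with 8.10 to 8.68 in the tumors against 4.45 to 4.80 in NTL. Slc1a4, a neutral amino acid transporter, rose by 3.17 ± 0.59 (SE), with 10.10, 9.84 and 9.78 in tumor replicates 1, 2 and 5 and lower levels of 7.12 and 7.6 in replicates 3 and 4. Slc7a11, the cystine transporter, and Gpx2, a glutathione peroxidase, followed the same split: Gpx2 read 9.38, 8.18 and 9.28 in replicates 1, 2 and 5 and 5.09 and 4.79 in replicates 3 and 4, near the NTL range of 3.91 to 4.59. Slc7a11 read 7.42, 6.38 and 6.91 in the first set and 4.59 and 5.18 in the second. The Gpx2 rise of 2.99 against NTL lost its call without NTL replicate 3 (adjusted p = 0.0535) and when only the compared groups were fitted (adjusted p = 0.0908). Cplane1, a ciliary planar polarity protein, rose by 4.13 on its brightest probe set, where the tumors ranged from 8.23 to 11.47, but its other probe sets gave 0.88 and 0.81 and the mean of all gave 1.94, so the size for this gene is uncertain.

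Many genes of drug metabolism fell. Of 33 cytochrome P450 and conjugation genes, 14 were called lower and none higher against NTL (median -0.72), and 13 were lower against both references. Cyp2b10, the phenobarbital-inducible P450, read 4.59, 4.58, 4.67, 3.94 and 4.16 in the tumors, 8.26, 8.92 and 9.43 in NTL and 8.87, 9.10, 11.61 and 8.20 in the controls. It was low in all 5 tumors, at -4.48 ± 0.70 (SE) against NTL (limma adjusted p = 2.87e-05) and -5.06 against the controls. Sult5a1, a sulfotransferase, fell by 3.29, Sult2a8 by 2.66, Cyp2f2, a periportal P450, by 2.53 and the carboxylesterase Ces3b by 2.38, and each fell against both references. Cyp3a11, a major drug-metabolising P450, was at 0.01 and not called, and Fmo1 and Fmo5, flavin monooxygenases, were at 0.07 and 0.25.

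The largest falls were of single genes. Adh6-ps1, an alcohol dehydrogenase pseudogene, read 4.24 to 5.19 in the tumors, 9.10 to 9.75 in NTL and 8.45 to 10.77 in the controls. Cyp46a1, a cholesterol 24-hydroxylase, was at -4.19 ± 0.24 (SE) against NTL (limma adjusted p = 9.14e-13) and at -1.68 against the controls, with tumors at 5.38 to 6.11, controls at 6.36 to 8.00 and NTL at 9.70 to 10.04. Dio1, the deiodinase that activates thyroid hormone, fell by 3.48 against NTL and 3.62 against the controls, and its tumors ranged from 5.10 to 8.10. Of the genes ranked, Serpina4-ps1 had the largest fall, -4.94 ± 1.13 (SE), but was not called against the controls, where it spread from 5.59 to 12.67. Cyp8b1, which makes cholic acid, fell by 3.02 and Slco2b1, an organic anion transporter, by 1.75. The bile acid list as a whole had 5 of 23 genes lower and 1 higher, and Cyp7a1, the rate-limiting enzyme of bile acid synthesis, was at -0.87 and not called.

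Plasma protein genes changed mostly by small amounts. Of 28 plasma protein genes, 13 were called lower and none higher against NTL (median -0.20), and 6 were lower against both references. Complement components were the exceptions: C9 was at -2.83 and C8b at -1.74, the latter not called against the controls (-0.57), and both were highest in tumor replicate 3. The transcription factors Cebpa and Ppara, regulators of hepatocyte maturity and of fat oxidation, fell by 0.80 and 0.89, also against the controls. Hnf4a, the central hepatocyte factor, was at -0.14 and not called. Of 13 hepatocyte markers, 4 were lower (median -0.18).

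Fuel metabolism changed in parts. Of 20 genes of fatty acid oxidation, 6 were called lower and 1 higher against NTL (median -0.21), and 9 were lower against the controls; without tumor replicate 3, 4 were lower against NTL. Decr1, a reductase used in the oxidation of unsaturated fatty acids, fell by 0.72, and Slc25a20, which carries acylcarnitines into mitochondria, by 0.61. Of 21 genes of fatty acid and triglyceride synthesis, 4 were lower and none higher, 3 of them against both references. Thrsp, a lipogenic nuclear protein also known as Spot14, read 9.92, 10.68, 10.11, 8.70 and 9.45 in the tumors, 11.61, 12.01 and 11.90 in NTL and 12.56, 12.64, 11.10 and 10.57 in the controls. Every tumor was below every NTL array, by 2.07 ± 0.51 (SE) on average (-2.07; limma adjusted p = 0.00408), while control replicate 4 lay within the tumor range. Dgat2, which makes triglyceride, fell by 0.80 and was 0.54 below the controls (-0.54). Lipe, hormone-sensitive lipase and a member of the adipocyte list, fell by 1.09. Fasn, fatty acid synthase, and Scd1, a fatty acid desaturase, were at 0.55 and 0.06 and not called. Of 21 glycolysis genes, 2 were higher and 1 lower, and among them Slc16a1, a lactate transporter, rose by 0.77 (0.32 and not called against the controls), while Hk2, Pkm and Ldha, glycolytic enzymes often raised in tumors, were at 0.22, 0.76 and 0.16 and not called. In the gluconeogenesis and glycogen list 6 of 14 genes were lower and 1 higher against NTL, and 4 lower and none higher against both references. Ppp1r3b, which targets a phosphatase to glycogen, changed sign with the reference, at 0.89 against NTL and -0.69 against the controls; the first call was lost without NTL replicate 1 (0.75, adjusted p = 0.0710).

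Some one-carbon and redox genes rose. In the list of serine, one-carbon and ATF4-driven genes, 4 of 23 were higher and 1 lower against NTL, where 11.5% and 10.3% of all genes were. The 4, Slc1a4, Slc7a11, Psat1 and Mthfd2, were also higher against the controls. Mthfd2, a mitochondrial folate enzyme, read 7.63, 7.76, 8.12, 7.32 and 7.35 in the tumors, 6.42, 5.98 and 5.97 in NTL and 6.37, 5.92, 5.91 and 6.06 in the controls. Every tumor was above every other array, and the rise was 1.51 ± 0.19 (SE; limma adjusted p = 1.30e-06) against NTL and 1.57 against the controls. Psat1, an enzyme of serine synthesis, was highest in tumor replicate 3, at 7.99, and 5.67 to 6.52 in the others. Of 20 targets of NRF2, the activator of antioxidant genes, 8 were higher and 1 lower against NTL. Against the controls 3 were higher and 2 lower, where 10.2% and 10.3% of all genes were. Without tumor replicate 3, 12 were higher and 1 lower against NTL. Srxn1, sulfiredoxin, read 10.44, 9.77, 8.38, 9.26 and 9.59 in the tumors, 8.08 to 8.23 in NTL and 8.45 to 9.23 in the controls, so it rose by 1.31 against NTL, and tumor and control overlapped. Pgd, of the pentose phosphate route, rose by 1.05 against NTL and was at 0.10 against the controls. Abcc3, a basolateral export pump, fell by 1.44.

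Of 22 acute phase genes, 2 were higher and 5 lower against NTL, and 2 and 4 against the controls. Without tumor replicate 3, 4 were higher and 4 lower against NTL, and 0 and 4 against the controls. Lcn2, lipocalin 2, an iron-scavenging protein, read 12.01, 11.12, 11.89, 11.44 and 12.57 in the tumors, 9.45, 8.72 and 9.72 in NTL and 10.69, 10.21, 10.95 and 9.15 in the controls. Every tumor was above every other array, by 2.51 ± 0.58 (SE; limma adjusted p = 0.00202) on average against NTL. Lcn2 was 1.56 above the controls, a call that was lost without tumor replicate 3. Orm1, an acute phase glycoprotein, fell by 0.59. Of 15 cholangiocyte and ductular genes, 2 were higher and 2 lower against NTL, near the shares of all genes (11.5% higher and 10.3% lower). Among them Tm4sf4, a tetraspanin-like membrane protein, rose by 1.15. Of the markers of cells foreign to liver lobules, 1 of 5 erythroid genes was lower, 1 and 2 of 9 adipocyte genes were higher and lower, and 0 of 7 pancreatic acinar genes were called by limma (0 at an unadjusted p below 0.05 and 0 with array weights).

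**Figure D3:**
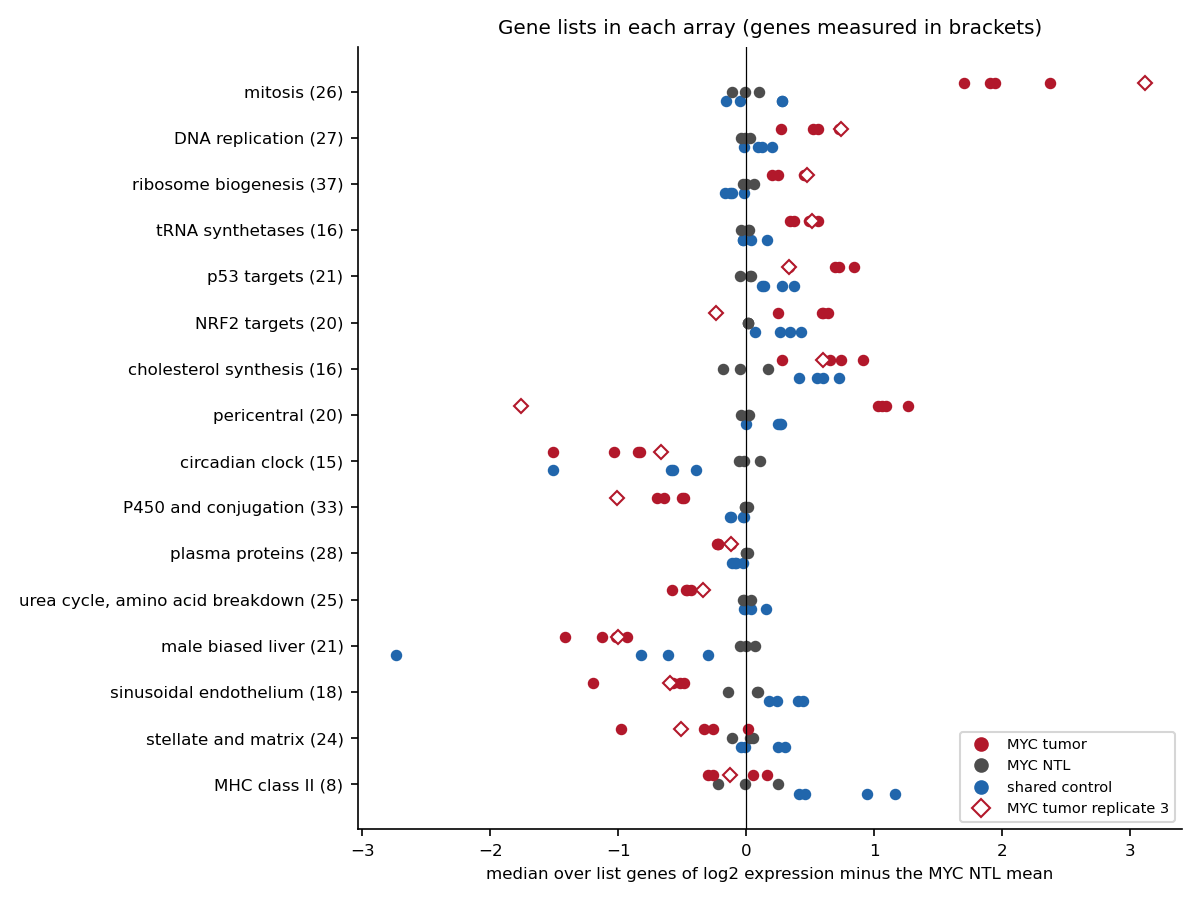
Median over the genes of each of 16 lists of log2 expression minus the MYC NTL mean (x axis), one point per array, with the number of measured genes in brackets. Tumors lie to the right for mitosis and ribosome biogenesis and to the left for P450 genes; tumor replicate 3, the open diamond, is at -1.76 for pericentral genes where the other 4 tumors are at 1.03 to 1.26, and the controls share the tumor side for the clock and cholesterol lists.

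The pericentral program split the tumors. With all 5 tumors, 2 of 20 pericentral genes were called higher against NTL and none lower. Tumor replicate 3 was below every NTL array for 20 of the 20 genes while the other 4 tumors were all above every NTL array for 17 of them. That opposite pattern was met by 1.5% of all genes, and 40.0% of all genes were below every NTL array in tumor replicate 3. Glul, glutamine synthetase, read 13.49, 13.43, 13.45 and 13.52 in tumor replicates 1, 2, 4 and 5, 12.37 to 12.54 in NTL and 9.41 in tumor replicate 3. Its other probe set gave the same order, with 8.35 in replicate 3 against 11.37 to 11.38 in NTL and 12.94 to 13.09 in the other tumors. Lgr5, a Wnt co-receptor gene of pericentral cells, read 10.18, 9.85, 9.84 and 10.16 in those 4 tumors, 7.36 to 7.79 in NTL and 5.21 in replicate 3. Axin2, a feedback target of β-catenin, was 5.43 in replicate 3 against 6.28 to 6.53 in NTL, with a mean of 8.36 ± 0.32 (SD, n = 4) in the others. Glul, Lgr5 and Axin2 all come from the pericentral list, and the activity of a pathway was not tested.

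Tumor replicate 3, an array singled out after its values were seen, was then left out. Against the controls 7 of 20 pericentral genes were called higher, and all 7 were also higher against NTL. Against NTL 11 of 20 were called higher (11.3% of all genes were), with a list median of 1.13 in place of 0.51. Rhbg, an ammonium transporter, then rose by 2.64 ± 0.64 (SE), Lgr5 by 2.44 ± 0.68 (SE), Slc13a3, a dicarboxylate transporter, by 2.44 ± 0.53 (SE) and Nkd1, a Wnt feedback inhibitor, by 2.13 ± 0.26 (SE). Axin2 rose by 1.97, Oat, ornithine aminotransferase, by 1.44, and Rnf43 and Znrf3, which remove Wnt receptors, by 1.16 and 0.75. Oat was 12.53 to 13.03 in these 4 tumors, 11.30 to 11.45 in NTL and 12.22 to 12.41 in the controls, so its rise was smaller against the controls. Glul, at 1.02 ± 0.43 (SE), was not called (limma adjusted p = 0.0925). Cyp2e1 and Cyp1a2, P450 genes of the same zone, did not rise with them, at -0.00 and -0.03 in the other 4 tumors. They stood at 11.72 and 9.37 in replicate 3, against 13.49 to 13.52 and 12.86 to 12.90 in NTL. With all 5 tumors Nkd1 and Sp5 were the 2 called members, at 1.46 and 0.84. Both calls were lost when only the compared groups were fitted (limma adjusted p = 0.216 and 0.127). They were also lost without tumor replicate 2, NTL replicate 2 or NTL replicate 3. Against the controls Sp5 was called, at 0.80, and Nkd1 was not, at 1.06 (limma adjusted p = 0.082).

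Some genes of periportal work, chosen after their values were seen, ran the opposite way in tumor replicate 3, but their list did not do so as a whole. Of 25 urea cycle and amino acid genes, replicate 3 was the highest tumor for 12 and the lowest for 7, and it was below every NTL array for 18, while the other 4 tumors were all below every NTL array for 17. Arg1, the last enzyme of the urea cycle, was 12.14 in tumor replicate 3, at the NTL range of 11.98 to 12.13, and had a mean of 9.92 ± 0.44 (SD, n = 4) in the other tumors. Hal, histidine ammonia-lyase, read 9.08, 6.61, 8.95 and 9.40 in replicates 1, 2, 4 and 5, 11.29 in replicate 3 and 11.96 to 12.04 in NTL. Cps1, the entry enzyme of the urea cycle, was 13.20 in replicate 3, 12.05 to 12.66 in the other tumors and 13.21 to 13.27 in NTL. For these 3 enzymes replicate 3 was the tumor nearest to NTL. Of the 25 genes, 10 were lower and 1 higher against NTL with all tumors (median -0.47). Uroc1, urocanase, fell by 1.84 with all tumors and by 2.34 without replicate 3, and Otc, ornithine transcarbamylase, fell by 1.32 without it. Pck1, the gluconeogenic carboxykinase, was 12.54 in replicate 3 and 10.30 to 12.05 in the others, and C9, the complement component, 11.94 against 6.85 to 10.54. The calls of Uroc1, Pck1 and C9 were lost when only the compared groups were fitted (adjusted p = 0.0683, 0.0674 and 0.0593).

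**Figure D4:**
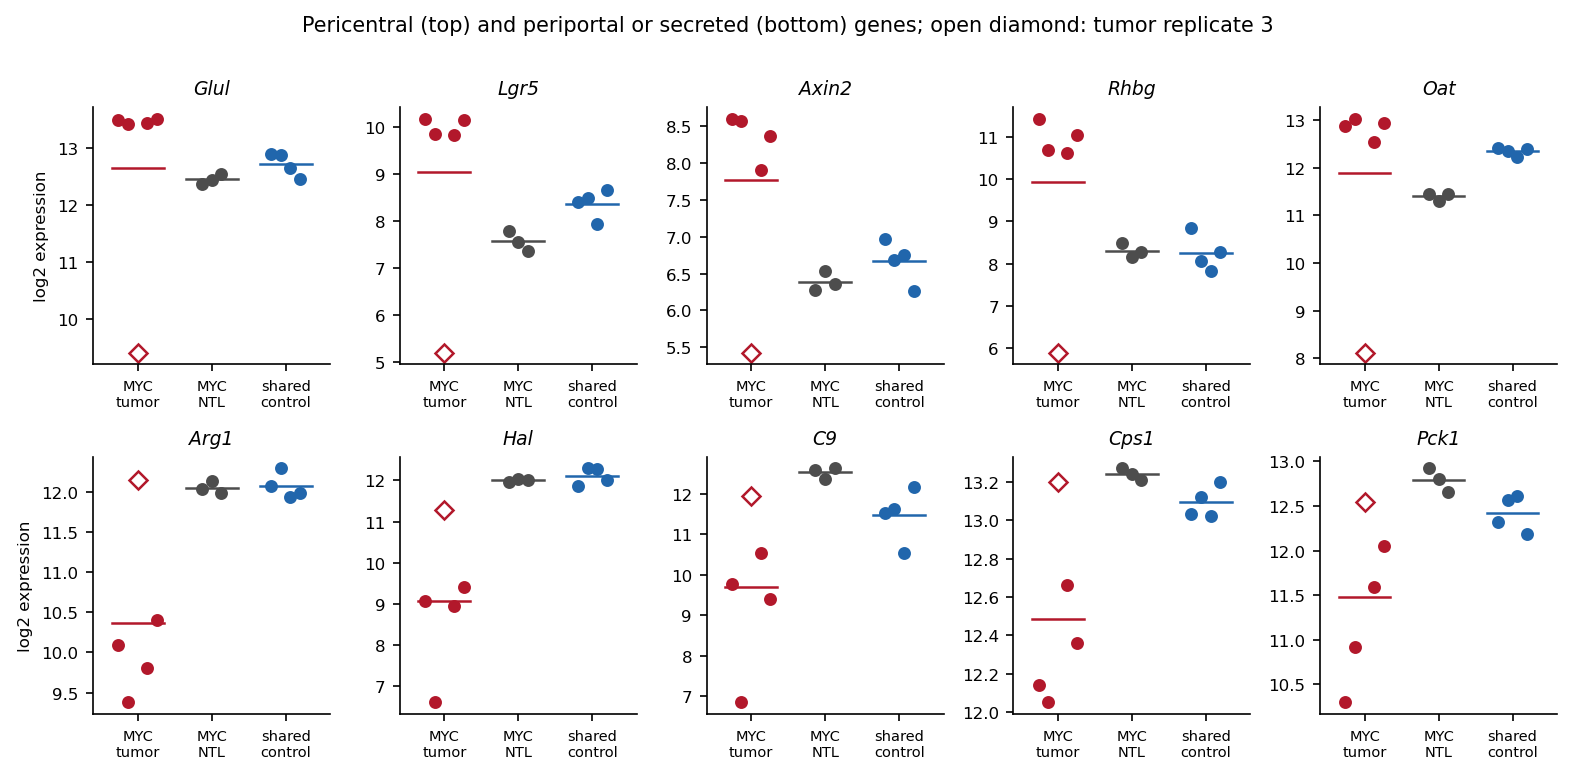
Log2 expression (y axes, each with its own range) of 5 pericentral genes (top row) and 5 periportal or secreted genes (bottom row) in the 3 groups; points are arrays, bars group means, and the open diamond is tumor replicate 3. Glul is 9.41 in that array and 13.43 to 13.52 in the other 4 tumors, while Arg1 is 12.14 there and lower in the others.

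Genes were ranked by the gap between tumor replicate 3 and the mean of the other 4 tumors, leaving out predicted genes and some families. This description was chosen after the values were seen. It put Slc1a2, a glutamate transporter of pericentral cells, first among the lower genes at -5.56. Slc13a3, Rhbg, Lgr5 and Oat were also among the 10 largest. Cyp2c54 and Cyp2c50 were 6.04 and 6.24 in this tumor, at 10.69 or above in the others and 11.89 to 11.99 in NTL. Cyp2c39, a further P450 gene, was 7.49 in this tumor, 11.91 to 12.20 in the others and 9.09 to 9.50 in NTL. Meg3, a maternally expressed imprinted RNA, was 5.18 in replicate 3, 9.08 to 10.74 in the other tumors, 6.69 to 7.80 in NTL and 5.64 to 6.51 in the controls. On the higher side, Tff3, trefoil factor 3, was 12.10 against 5.87 to 7.04, and Mir675, whose hairpin lies within the imprinted RNA H19, was 11.42 against 5.62 to 7.15, with 5.17 to 5.54 in NTL. Cdh1, E-cadherin and a periportal adhesion gene, was 9.23 in replicate 3, 4.39 to 6.61 in the other tumors and 8.81 to 8.96 in NTL.

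Fetal and tumor marker genes were mostly not called. Of 28 such genes, 5 were higher and 1 lower against NTL, and 3 and 1 against both references. Afp, α-fetoprotein, read 6.14, 5.54, 5.22, 5.83 and 5.44 in the tumors and 4.69 to 5.02 in NTL, so that all tumors lay above NTL, but the difference of 0.77 ± 0.64 (SE) was not called (limma adjusted p = 0.430). Gpc3, glypican 3, was 8.73 in tumor replicate 1 and 4.49 to 5.91 in the other tumors, within or near the NTL range of 4.34 to 5.25. Igf2, the fetal growth factor, was 7.55 in tumor replicate 3, the array with the high Mir675 value, and 5.53 to 6.37 in the others. Gpc3 was thus high in replicate 1 alone, and Igf2 was highest in replicate 3. Cap2, a cyclase-associated protein, and Sox4, a developmental transcription factor, rose by 1.82 and 1.18, also against the controls (for Sox4 not without control replicate 3, adjusted p = 0.0624), while Peg3, a paternally expressed imprinted gene, fell by 1.89. Without NTL replicate 2 the Peg3 fall was 1.83 (-1.83, adjusted p = 0.0573).

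Many genes of the liver's supporting cells fell. In whole tissue, fewer cells of a type and less RNA per cell cannot be told apart. Of 24 stellate cell and matrix genes, 10 were lower and none higher against NTL (median -0.44), all 10 also against the controls. Dcn, decorin, read 11.19, 9.63, 10.11, 10.66 and 9.46 in the tumors, 11.84, 11.89 and 11.82 in NTL and 11.94 to 12.27 in the controls. Every tumor was below every reference array, by 1.64 ± 0.32 (SE) on average against NTL (-1.64; limma adjusted p = 0.000367). Hgf, hepatocyte growth factor, fell by 1.46, Reln, reelin, by 1.41 and Lrat, which stores retinol in stellate cells, by 1.19. The fibrillar collagens Col1a1, Col1a2 and Col3a1 were at 0.08, -0.15 and -0.27 and not called.

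Of 18 sinusoidal endothelial genes, 7 were lower and none higher against NTL (median -0.66), and 15 were lower against the controls, or 11 without control replicate 3. The list's mean level per array ran from 7.67 to 8.36 in the tumors, 8.66 to 8.87 in NTL and 9.04 to 9.26 in the controls, so the groups did not overlap. Wnt2 and Rspo3, Wnt ligand and amplifier made by endothelium near the central vein, fell by 0.85 and 0.97. Stab1, a scavenger receptor, fell by 0.56, and Lyve1 was at 0.10 and not called. Of 20 vascular endothelial genes, 3 were higher and 5 lower against NTL (median 0.01). Esm1, endocan, a gene of sprouting endothelium, had the largest rise among them: it read 7.81, 8.09, 7.42, 6.74 and 7.32 in the tumors, 4.58 to 4.69 in NTL and 4.97 to 5.43 in the controls, a rise of 2.84 ± 0.34 (SE; limma adjusted p = 8.06e-07). Plvap, a diaphragm protein of fenestrated vessels, and Eng, endoglin, fell by 1.16 and 0.70.

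Macrophage genes divided. Of 18 Kupffer cell genes, 2 were lower and 2 higher against NTL, near the shares of all genes (10.3% lower and 11.5% higher). Against the controls 6 were lower and none higher, where 10.3% and 10.2% of all genes were. Cd163 and Folr2 fell by 2.12 and 1.71, also against the controls, and Cd163 was 4.31 to 4.84 in the tumors and 6.61 to 6.87 in NTL. Hmox1, heme oxygenase 1, rose by 0.85 and Cd68, a lysosomal macrophage marker, was at 0.89; neither was called against the controls, and the Cd68 call against NTL was lost without tumor replicate 1 or 5, without NTL replicate 1 or 2, or when only the compared groups were fitted (adjusted p 0.0616 to 0.0980). Clec4f and Timd4, which define resident Kupffer cells, were at -0.70 and -0.44 and not called. Of 18 monocyte-derived macrophage genes, 5 were higher and none lower against NTL, and 1 was higher and 2 lower against the controls. Gpnmb, a lysosomal glycoprotein of lipid-laden macrophages, read 8.94, 7.97, 6.22, 7.42 and 8.45 in the tumors, 4.59 to 4.72 in NTL and 5.19 to 7.48 in the controls, so tumor and control overlapped. Cd9 rose by 1.56 and was 0.88 above the controls. In the T and NK cell list 1 of 24 genes was lower, and in the B cell and neutrophil lists none of 14 and 12 was called by limma, nor had an unadjusted p below 0.05 (0 in each list, and 0 called with array weights). Interferon response genes gave 4 higher and 3 lower of 26 against NTL, where 11.5% and 10.3% of all genes were. The 3 lower were Psmb8, Psmb9 and Tap1 of antigen processing, at -0.96, -1.0 and -0.58, also lower against the controls. The part of these cell types in the hepatocyte results was not tested.

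The NTL and control livers themselves differed, so part of the tumor changes depended on the reference. Between them 721 genes were called (3.83%), 313 higher in NTL (1.66%) and 408 lower (2.17%), a split that became 383 and 329 after median centring of the arrays. The number of calls was 299, 362 and 402 without NTL replicate 1, 2 or 3, and 466 and 454 without control replicate 1 or 3. The clock list differed most widely. Of 15 clock genes, 6 were higher and 2 lower in NTL than in the controls, and against NTL the tumors had 8 lower and 3 higher, but against the controls only 1 lower and none higher, and 0 lower without control replicate 3. Arntl (BMAL1), the activator of the clock, read 8.46, 7.80, 7.69, 6.29 and 7.28 in the tumors, 5.12, 4.80 and 4.78 in NTL and 6.77, 6.68, 7.49 and 8.79 in the controls. Ciart, a repressor of BMAL1, ran the opposite way: 5.55 to 8.26 in the tumors, 10.51 to 10.91 in NTL and 5.42 to 9.03 in the controls. The NTL arrays were tightly grouped, and the tumors overlapped the controls and not NTL. Time of day at collection is not in the labels, so tumor state and collection time cannot be told apart for these genes. The Ciart difference between NTL and controls, 3.39, was 2.75 to 3.49 and not called without control replicate 3 or 4 or any 1 NTL array (adjusted p 0.0625 to 0.0759).

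Clock promoters are rich in the same E-box, which the BMAL1 and CLOCK pair also binds. It occurred in 5 of 13 clock windows (38.5%). Ciart and Bhlhe41, a repressor of the clock that was at -2.15 against NTL and 0.01 against the controls, are shown because they fell most against NTL among the clock genes with a match; they were chosen after their values were seen. The 250 bases before each start are printed, on the minus strand, 5′ to 3′, at chr3:95882229-95882478 and chr6:145865421-145865670. Capitals mark CACGTG, with 3 copies in Ciart, beginning between 116 and 44 bases before the start, and 1 in Bhlhe41, beginning 153 bases before it.
Ciart: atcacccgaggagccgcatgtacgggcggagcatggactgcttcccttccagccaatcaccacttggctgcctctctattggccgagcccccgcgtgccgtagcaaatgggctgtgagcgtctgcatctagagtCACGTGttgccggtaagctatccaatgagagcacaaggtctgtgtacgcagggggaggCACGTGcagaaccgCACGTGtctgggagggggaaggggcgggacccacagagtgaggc
Bhlhe41: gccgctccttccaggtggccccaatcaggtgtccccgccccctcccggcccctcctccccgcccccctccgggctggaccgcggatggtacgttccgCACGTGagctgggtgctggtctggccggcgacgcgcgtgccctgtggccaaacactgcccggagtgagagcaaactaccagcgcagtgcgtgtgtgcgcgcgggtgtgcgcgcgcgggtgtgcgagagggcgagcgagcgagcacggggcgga

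Cholesterol synthesis followed the same arrangement. Of 16 genes, 8 were higher in tumor than in NTL (median 0.67), 0 were called against the controls by limma (1 at an unadjusted p below 0.05; 0 with array weights; median 0.04), and 4 were lower in NTL than in the controls. Hmgcs1, the first committed step of the mevalonate route, read 11.72, 11.98, 11.20, 11.36 and 11.47 in the tumors, 10.11, 9.49 and 9.72 in NTL and 11.26 to 11.53 in the controls. Tumor and control ranges overlapped and NTL was low, with a rise of 1.77 ± 0.29 (SE) against NTL and a difference of 0.14 against the controls. Mvd, mevalonate decarboxylase, and Sqle, squalene epoxidase, showed 1.62 and 1.17 against NTL and 0.12 and -0.12 against the controls.

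Several of the largest single changes against NTL likewise rested on the NTL level. Tubb2a, a β-tubulin, was 8.68 to 10.62 in the tumors, 5.71 to 6.38 in NTL and 9.42 to 10.36 in the controls, so it rose by 3.79 against NTL and was at 0.12 against the controls. Pdk4, a brake on pyruvate oxidation that rises in fasting, was at 3.44 and 0.52. Cabyr, a calcium-binding fibrous sheath protein, was at -3.94 against NTL and -0.19 against the controls, since NTL stood 3.74 above the controls. Gys2, liver glycogen synthase, was at -1.18 and -0.20. In each case NTL was the group that stood apart.

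A few genes set both MYC groups apart from the controls. H2-Ea, an MHC class II chain that some laboratory strains do not make, was 9.65, 8.85, 9.41, 9.10 and 9.59 in the tumors, 7.77, 8.15 and 8.63 in NTL and 4.75, 4.32, 4.67 and 4.67 in the controls. NTL was 3.58 above the controls (limma adjusted p = 5.74e-07) and the tumors 4.72 (limma adjusted p = 4.49e-11), without overlap. Ctse, cathepsin E, was 3.91 higher in NTL and 4.65 higher in tumor than in the controls, and Asns, asparagine synthetase, 3.50 and 3.00 higher. The other 7 class II genes did not share this: H2-Aa, H2-Ab1 and H2-Eb1 were called lower in tumor than in the controls, at -0.94, -1.47 and -1.07. Without control replicate 3 the H2-Aa call was lost (-0.88, adjusted p = 0.0806), and 2 class II genes in place of 5 were lower. Strain is not given, so a strain difference between the MYC mice and the controls cannot be told apart from the model.

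**Figure D5:**
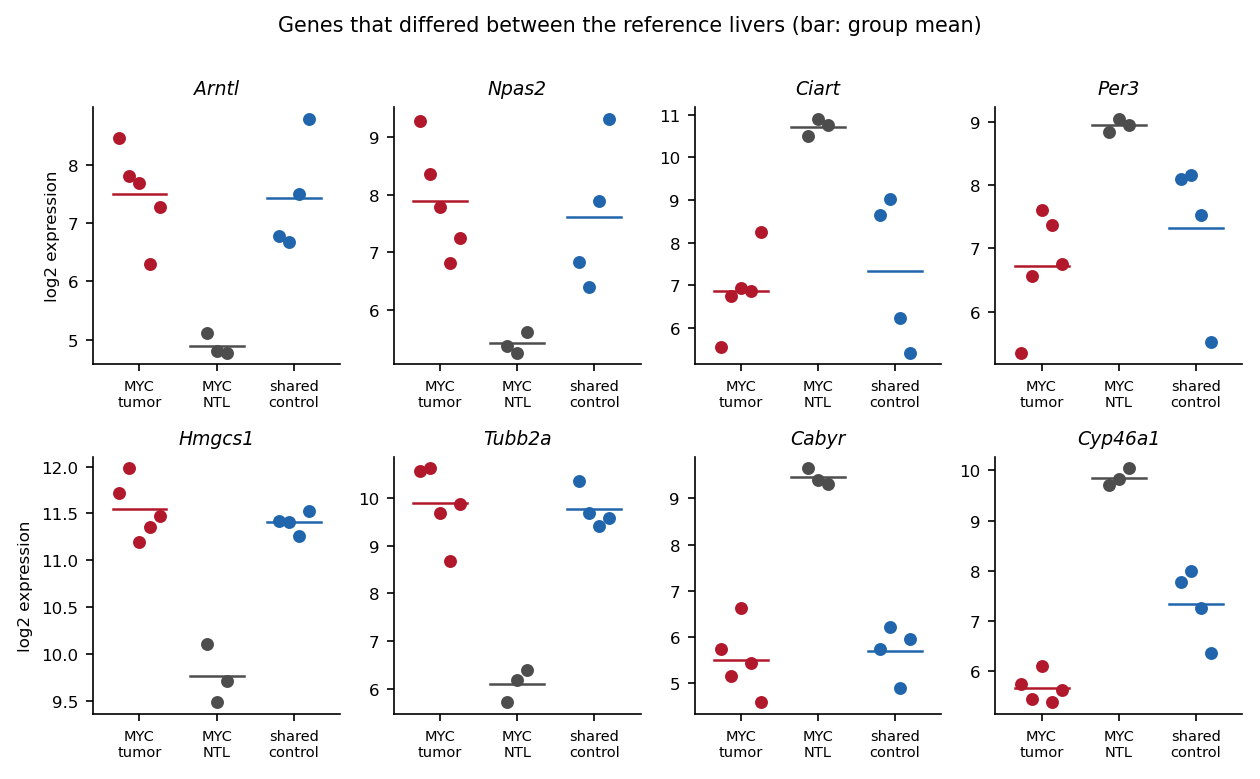
Log2 expression (y axes, each with its own range) of 8 genes whose level differed between MYC NTL and shared controls, in the 3 groups; points are arrays and bars group means. For Arntl, Hmgcs1 and Tubb2a the NTL arrays lie below tumors and controls, and for Ciart and Cabyr above them.

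Genes with male-biased expression in mouse liver also depended on the reference. Of 21, 6 were lower in tumor than in NTL (median -1.30), 2 were lower than in the controls (median -0.03), and 2 were higher in NTL than in the controls. Selenbp2, a selenium-binding protein, was at -2.54 against NTL and -0.69 against the controls. Control replicate 3, the array with high Xist, had a list median 2.74 below NTL (-2.74), against -0.82 to -0.30 in the other 3 controls. Y-linked genes varied between the tumors: Uty was 7.59, 4.44, 8.59, 7.63 and 5.35 in tumor replicates 1 to 5, 8.16 to 8.38 in NTL and 3.57 in control replicate 3. Tumor replicates 2 and 5 were low for Uty and Kdm5d, whereas replicate 3 was low for Eif2s3y alone, at 5.38 against 9.37 to 9.48 in NTL. Of the 4 sex chromosome genes measured, 0 were called against NTL by limma (1 at an unadjusted p below 0.05; 0 with array weights).

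Expression by chromosome was uneven in the tumors. Over the 9410 genes in the upper part of the expression range, the median change against NTL was 0.04, and each NTL array lay within 0.02 of the NTL mean on every chromosome. Chromosome 4 had a median of -0.14, with 25.5% of its 593 genes called lower against 14.0% of all 9410, and medians of -0.22, -0.10, 0.03, -0.23 and -0.15 in tumor replicates 1 to 5. Chromosome 18 stood at 0.17, with 0.01 in replicate 3 and 0.20, 0.26, 0.07 and 0.23 in the others. The X chromosome had a median of 0.14, with 29.2% of its 253 genes called higher against 18.2% of all 9410, and 0.15, 0.20, 0.16, 0.12 and 0.12 in tumor replicates 1 to 5. Tumor replicate 4 had its own pattern, with 0.28 on chromosome 8, 0.18 on chromosome 11, -0.25 on chromosome 10 and -0.21 on chromosome 12. DNA copy number was not measured here, and these are shifts in expression.

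The 6 largest rises and 6 largest falls among the named genes were compared with the DEN and LT models. The measure was the difference of the 2 tumor-minus-NTL changes. The models also differ in treatment, and age at collection is not given for the MYC groups. Over all genes 2841 differences were called against DEN (15.1%; 7.98% higher and 7.12% lower in MYC) and 2326 against LT (12.4%; 6.6% higher and 5.76% lower). Cdkn1a rose by 4.37 in MYC tumors, by 0.24 in DEN tumors and by 2.38 in LT tumors, a difference of 4.13 ± 0.63 (SE) from DEN (limma adjusted p = 4.02e-05) and of 1.99 ± 0.68 (SE) from LT that was not called (limma adjusted p = 0.0502). Cplane1, Tubb2a, Cyp46a1, Clec2h and Cabyr differed from both models. Of these, Tubb2a, Cabyr and Clec2h were not called in MYC tumor against the shared controls, at 0.12, -0.19 and -1.60. For the same genes MYC NTL was at -3.67, 3.74 and 2.37 against the controls, so their differences between models depend on the NTL level. Serpina7, thyroxine-binding globulin, rose by 3.49 in MYC and 2.19 in DEN tumors and was at -1.14 in LT tumors, a called difference from LT only. D17H6S56E-5 rose in MYC, DEN and LT tumors by 3.93, 3.14 and 2.59, and Cyp2b10 was at -4.48, -5.37 and -3.82. For neither gene was the difference from either model called (SE of the differences 0.56 to 0.99).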

How the data were processed

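Total RNA (100 ng per sample) was labelled for Affymetrix whole-transcript arrays, per the labels. The deposited value table holds log2 expression, which the authors made with RMA per the submitters' processing notes (background correction, quantile normalisation and probe summary in its usual form); its version and settings are not stated there. RMA's quantile step gives arrays nearly equal distributions, so a change in total RNA per cell would not show. Array data give no read depth, and precision is limited by the number of arrays.

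Of 35556 probe sets, 21218 carry 1 gene symbol in the platform annotation, 1881 several and 12457 none; the brightest probe set with 1 symbol stood for each of 18820 genes, 1386 of which had more than 1. Entrez identifiers of 21185 probe sets matched RefSeq, and no symbol changed. Group means of all 35 arrays were fitted with limma 3.58.1 (R 4.3.3; lmFit, eBayes) and contrasts taken with Benjamini-Hochberg adjustment over all genes, so that all groups share 1 estimate of spread. On simulated data for MYC tumor against NTL, the fit recovered 91% of genes changed by 1 on the log2 scale and 64% of those changed by 0.5, and called 8 of 18620 unchanged genes. The simulation changed 200 genes, far fewer than were called here, and gave each gene the same spread in all groups. Unequal spread between groups was therefore not tested.

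Named genes were the 12 largest called rises and falls, and 2 called members per list in its main direction and 1 in the other. Added to these were the 5 largest in each direction called against NTL only and the 5 in each direction between NTL and controls. Fixed markers were also named. Further list members, and genes ranked by tumor replicate 3, were named after their values were seen. The rankings left out, by name pattern, predicted, clone-named, histone, olfactory, vomeronasal, antigen receptor and major urinary protein genes. H19 has no probe set of its own. The comparison and the 40 gene lists (729 genes measured) were chosen with earlier results of these data known. Alternatives were median centring, the mean of probe sets, array weights, trend and robust moderation, fitting only the compared groups, a block on replicate number, leaving out dim genes, averaging the 2 tumors with a common ID stem, and leaving out each array. Same-numbered tumor and NTL arrays did not deviate together (correlations -0.013, 0.010 and 0.054). Python 3.11.15, pandas 2.3.3 and matplotlib 3.10.9 were used for tables and figures.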

Additional observations from a re-analysis of the deposited data

Results flagged for a closer look

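Among 236 groups of 4 or 5 arrays examined for a sample far from the others (Dixon's criterion, which chance meets in about 1 of 20), 11 had such a sample. Tumor replicate 3 accounted for 5: Glul at 9.41 against 13.43 to 13.52, Nkd1 at 5.68 against 8.58 to 9.53, Mki67 at 10.04 against 8.00 to 8.55, Serpina4-ps1 at 9.41 against 5.74 to 6.47, and Cyp2u1, a male-biased P450, at 8.61 against 6.10 to 6.56. Control replicate 3, the array with high Xist, accounted for 3: Cyp2u1 at 7.20 against 9.23 to 9.50, Cyp8b1 at 10.22 against 11.56 to 11.82, and Acnat2, an acyltransferase, at 10.14 against 9.27 to 9.40. In control replicate 4, Myc was 9.56 against 7.18 to 7.31 and Cd4 was 5.93 against 5.62 to 5.66. In tumor replicate 4, Pfkl, the liver phosphofructokinase, was 7.71 against 8.51 to 8.72.

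The tumor-minus-NTL change differed between models, by limma's test of the difference, for these of the 12 genes compared. Against DEN the MYC change was larger by 4.13 for Cdkn1a, 4.18 for Cplane1 and 3.53 for Tubb2a, and the difference was -3.0 for Cyp46a1, -3.43 for Clec2h, a C-type lectin, and -3.71 for Cabyr. Against LT it was larger by 4.29 for Cplane1, 2.28 for Tubb2a, 1.88 for Mtmr11 and 4.63 for Serpina7, and the difference was -4.21 for Adh6-ps1, -3.38 for Cyp46a1, -4.45 for Clec2h and -4.01 for Cabyr. Tubb2a, Clec2h and Cabyr were not called in MYC tumor against the shared controls. The Cplane1 differences were 1.43 and 1.8 with the mean of its probe sets. The Tubb2a difference from LT was not called without NTL replicate 1 (2.09, adjusted p = 0.0556), without LT tumor replicate 3 (1.73, adjusted p = 0.0630) or with array weights (adjusted p = 0.0545). The Mtmr11 difference was not called without NTL replicate 1 (1.89, adjusted p = 0.0503), NTL replicate 2 (1.78, adjusted p = 0.0646) or LT tumor replicate 3 (1.02, adjusted p = 0.109), nor when only the compared groups were fitted (adjusted p = 0.0768).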

How the results depend on the processing

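Of 106 named genes called in tumor against NTL, 65 kept their call under every alternative run, 9 lost it only with the replicate block, and 32 lost it in at least 1 other alternative; no called value changed direction. The block on replicate number, which these data do not show to pair the arrays, gave 2194 calls for tumor against NTL in place of 4106, 2015 against controls in place of 3860, 1656 for NTL against controls in place of 721, and 816 for the difference from LT in place of 2326. Fitting only the compared groups gave 1537 calls for NTL against controls and 1231 for the difference from LT, and array weights gave 2645 for NTL against controls and 4388 for the difference from DEN, in place of 2841. Leaving out 1 array at a time gave 2728 to 3995 calls for tumor against NTL, lowest without NTL replicate 1, 3055 to 3780 against controls, 299 to 660 for NTL against controls, 2100 to 3190 for the difference from DEN, 1570 to 3105 for the difference from LT, and 1673 to 2255 for changes that held against both references. The causes were not tested. With 3 NTL arrays, differences below about 2-fold could be missed: the simulation recovered 64% of changes of 0.5 on the log2 scale. It held no uneven tumors, so the recovery of changes in genes with uneven tumors was not tested.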
